A study of Mus musculus with 4 samples.

Results

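EN6 is one of 13 subtypes of excitatory neurons that the depositing authors named in the mouse superior colliculus, the layered midbrain structure that receives retinal axons and turns sensory input into orienting movements. The 236 EN6 nuclei were those carrying the name EN6 in the deposited table of nuclei, among 4093 excitatory nuclei and 9724 nuclei in all. Every library came from dissected superior colliculus of C57BL/6J mice, without a transgene or treatment. Stages ran from embryonic day 19 (E19) through P4 and P8 to P21, counted in days after birth, with 1 library per stage, each from the pooled tissue of several mice of unstated number and sex. The protocol text gives "E10" as abbreviation of the embryonic day, and the E19 of title and stage label was used. RNA of single nuclei was counted with the 10x Genomics 3′ v3 chemistry, in which each unique molecular identifier (UMI) marks 1 captured RNA molecule. The E19 library held 30 EN6 nuclei, the P4 library 41, the P8 library 101 and the P21 library 64.

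Excitatory neurons of the superior colliculus release glutamate, which the vesicular transporter encoded by Slc17a6 loads into synaptic vesicles. They differ in layer, in dendritic shape and in target, and transcription factors kept from embryonic life into maturity mark many of the types. From birth to weaning these neurons sort retinal and cortical axons into maps, form synapses and replace the proteins of axon growth with the ion channels and release machinery of mature neurons.

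With 1 library per stage there are no replicates, so no test was possible and every difference is one between single libraries. Levels are counts per 1000000 UMIs (CPM) of the summed nuclei of a subtype or group. Intervals in parentheses are exact at the 95% level (Poisson for levels and folds, Clopper-Pearson for shares) and cover counting error only. The subtypes were made by clustering these same nuclei, so differences between EN6 and the other excitatory nuclei describe the cluster and cannot test it.

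EN6 carried the transmitter gene of excitatory collicular neurons at the level of its class. Slc17a6 stood at 233, 244, 194 and 183 CPM in EN6 at E19, P4, P8 and P21. In the other excitatory nuclei it stood at 287, 241, 181 and 175 CPM, and in the inhibitory nuclei at 46.3, 38.8, 19.8 and 8.32 CPM. The EN6 interval overlapped the level of the other excitatory nuclei in every library and lay above that of the inhibitory nuclei. When each nucleus was thinned to 3000 UMIs, Slc17a6 was detected in 53.3%, 56.1%, 52.5% and 31.2% of EN6 nuclei, against 13%, 9.85%, 5.7% and 3.13% of inhibitory nuclei. Without thinning these shares were 76.7%, 75.6%, 86.1% and 82.8% in EN6 and 23.9%, 24.8%, 16.9% and 11.2% in inhibitory nuclei, at median depths of 6069.5, 7460, 10476 and 15852.5 UMIs in EN6 and 6075, 7684, 9265 and 14009.5 UMIs in inhibitory nuclei. Gad2, which encodes a GABA-synthesising enzyme, stood at 19.8, 21.1, 14.7 and 8.61 CPM in EN6 against 557, 490, 444 and 366 CPM in the inhibitory nuclei.

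Genes of neighbouring brain regions were checked for tissue carried along in dissection. Of 10 genes of hindbrain and cerebellum, 9 had no UMI in EN6 in any library, including Hoxa2, Atoh1 and Gabra6. Of 8 cortical markers, Emx1 had no UMI in any EN6 library, and the 8 summed to 39.6, 51.2, 44.2 and 59.3 CPM in EN6 against 92.4, 74, 43.4 and 44.3 CPM in the other excitatory nuclei. Neurod2, under the 20 CPM floor, was higher in EN6 in every library, at log2 ratios of 0.36 to 1.33. A set of 12 thalamus and pretectum genes summed to 4479, 4512, 4533 and 4667 CPM in EN6 against 4815, 5042, 5110 and 4654 CPM in the other excitatory nuclei. Its members Gbx2 and Slc6a4 had no EN6 UMI in any library. The members went different ways. Lef1 was higher in EN6 in every library, at log2 ratios of 0.59 to 1.84, and Rora had a mean of 0.18 (−0.15 to 0.47). Tcf7l2 (−4.21 to −3.11) and Foxp2 (−3.38 to −1.76) were lower in every library. No EN6 nucleus carried a barcode that occurred in another library; 18 nuclei of the whole series did. The share of EN6 nuclei with 2 or more UMIs of Gad1, Gad2 and Slc32a1 together was 3.33%, 9.76%, 5.94% and 6.25%, against 7.26%, 9.36%, 10.4% and 11.8% of the other excitatory nuclei.

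EN6 made up a larger share of the excitatory nuclei in the P8 and P21 libraries than in the E19 and P4 libraries. The share was 2.24% (1.52 to 3.19) in the E19 library and 3.4% (2.45 to 4.58) in the P4 library. It was 11.6% (9.59 to 14) in the P8 library and 9.38% (7.3 to 11.8) in the P21 library. The intervals of the earlier pair of libraries did not overlap those of the later pair, while within each pair they did. Of all nuclei, EN6 made up 1.16%, 1.72%, 4.03% and 2.85% at E19, P4, P8 and P21. By that measure the P4 interval (1.24 to 2.32) overlapped the P21 interval (2.2 to 3.62). The number of excitatory nuclei captured was 1338, 1206, 867 and 682 in the same libraries. EN6 was not alone in its larger later share. EN5 took 3.06%, 3.81%, 11.9% and 10.4% of excitatory nuclei and EN9 2.24%, 2.57%, 9% and 6.6%. EN3, EN4, EN8, EN12 and EN13 were also larger in the later pair of libraries. EN1 took 38.4%, 34.7%, 15.1% and 20.2% and EN2 21.4%, 8.87%, 5.07% and 5.28%. All these shares have the same denominator, so they do not move independently. EN7, a subtype found mostly at P4, took 15.8% of excitatory nuclei there and 0.115% at P8. Whether the makeup of the tissue, the dissection or the capture moved with the share was not tested.

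**Figure D1:**
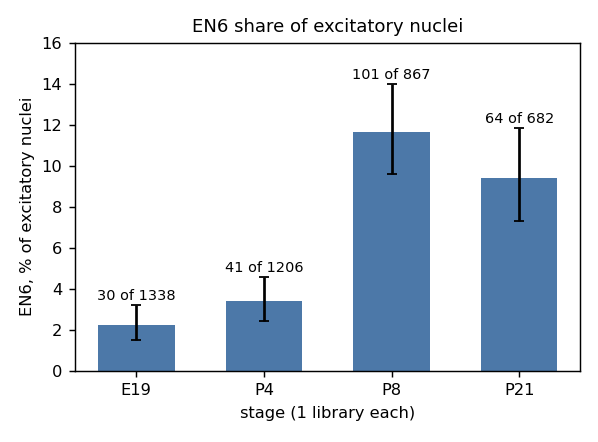
EN6 nuclei as a percentage of all excitatory nuclei (y axis) in the library of each stage (x axis). Error bars are exact 95% Clopper-Pearson intervals and numbers above the bars give nuclei; the share was 2.24% at E19 and 3.4% at P4 against 11.6% at P8 and 9.38% at P21.

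EN6 nuclei were shallow for their class. Their median was 6069.5, 7460, 10476 and 15852.5 UMIs at E19, P4, P8 and P21, against 8094.5, 11862, 14864.5 and 19795 UMIs in the other excitatory nuclei. That was the lowest median among 13 subtypes with at least 20 nuclei at E19 and at P4 and among 11 at P8, and the eighth of 11 at P21. The median percentage of mitochondrial UMIs was 0.759, 1.22, 0.316 and 0.202 in EN6 and 0.529, 0.597, 0.218 and 0.145 in the other excitatory nuclei. Summed EN6 UMIs were 201812, 331980, 1152725 and 1044848, so a gene at 20 CPM rested on about 4.04 UMIs at E19 and 23.1 at P8.

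The deposited table also carries a pair of reference labels for each nucleus, called Vectorseq and Transseq; what these references are and how labels were assigned is not stated in the sources used here. Of the 236 EN6 nuclei, 233 (98.7%) carried the Vectorseq label 14, and 98.3% of the 237 nuclei of the series with that label were EN6. The label was carried by 30 of 30 EN6 nuclei at E19, 40 of 41 at P4, 100 of 101 at P8 and 63 of 64 at P21. The Transseq label ESC2 was carried by 72.5% of EN6 nuclei, against 33.5% of the other excitatory nuclei. The ESC2 share in EN6 was 63.3%, 56.1%, 76.2% and 81.2% from E19 to P21, against 21.3%, 27.6%, 46.5% and 54.7% of the other excitatory nuclei.

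Within each library EN6 was set against all other excitatory nuclei pooled. Among 8646 genes at 20 CPM or more on either side in any library, 79 (0.914%) were higher in EN6 by a fold of 2 or more in all 4 libraries, after adding 5 CPM to both values. A further 171 (1.98%) were lower in all 4. In the counts of gene lists below, higher or lower in all 4 libraries means by that fold. EN6 ranked first among the compared subtypes in every library for 53 of the 79 higher genes, and last in every library for 35 of the 171 lower genes.

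Among the 15 higher genes named by rank, Rorb had the highest mean log2 ratio over the 4 libraries, at 3.77. Its smallest ratio, 2.56, lay under those of Nek11 (3.17), Sntb1 (2.97), Gm12068 (2.73), Chst9 (2.63) and Npl (2.6). Rorb encodes the orphan nuclear receptor RORβ, a transcription factor long used as a marker of layer 4 of sensory cortex and expressed in retina and superior colliculus. Rorb stood at 6848, 3862, 3037 and 1560 CPM in EN6 at E19, P4, P8 and P21, against 185, 211, 333 and 261 CPM in the other excitatory nuclei. The fold was 37.1 (34.6 to 39.7) for E19 and 18.3 (17.1 to 19.5) for P4, then 9.13 (8.72 to 9.56) for P8 and 5.99 (5.64 to 6.35) for P21. EN6 therefore led at every stage, and its lead was smaller in each later library. The next subtype in every library was EN5, at 1919, 1371, 1326 and 989 CPM. EN6 supplied 39.8% of all Rorb UMIs of excitatory nuclei at E19 from 1.75% of their UMIs in all. It supplied 29.4%, 46.6% and 31.6% at P4, P8 and P21, where its part of all UMIs was larger. EN6 held 331980, 1152725 and 1044848 UMIs in those libraries, against 14563182, 12037879 and 13561386 in the other excitatory nuclei. After thinning to 3000 UMIs, Rorb was detected in 100%, 100%, 99% and 98.4% of EN6 nuclei, against 24.1%, 29.5%, 37.8% and 35.8% of the other excitatory nuclei. In inhibitory nuclei, of depths given above, the thinned share was 31%, 26.3%, 35% and 30.7%. In the deposited counts without thinning every EN6 nucleus held a Rorb UMI, against 37.8%, 50.5%, 62.5% and 61% of the other excitatory nuclei and 41.1%, 38.2%, 54.2% and 51.4% of inhibitory nuclei.

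The Rorb gene lies on the minus strand at chr19:18930605-19111196 (GRCm38) and overlaps no other annotated gene. RefSeq (GRCm38.p6) gives it a pair of start sites, one at the outer end of the gene and one inside it, and 3′ counting does not tell which was used. The 250 bases before each start are printed because Rorb had the highest mean log2 ratio of the 15 higher genes named. A second gene, Hdac9, is shown because it alone of the 12 higher genes searched had a match to AGGTCA. That is the core of the element that ROR receptors bind. Each window searched ran from 250 bases before to 50 after a start. Capitals mark the match, which reads TGACCT on this strand.
Rorb, outer start, chr19:19111197-19111446, minus strand: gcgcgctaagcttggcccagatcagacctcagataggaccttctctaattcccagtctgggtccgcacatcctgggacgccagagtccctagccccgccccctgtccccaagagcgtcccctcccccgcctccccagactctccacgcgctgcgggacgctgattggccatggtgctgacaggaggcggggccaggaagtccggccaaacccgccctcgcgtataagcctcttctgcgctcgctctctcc
Rorb, inner start, chr19:19001118-19001367, minus strand: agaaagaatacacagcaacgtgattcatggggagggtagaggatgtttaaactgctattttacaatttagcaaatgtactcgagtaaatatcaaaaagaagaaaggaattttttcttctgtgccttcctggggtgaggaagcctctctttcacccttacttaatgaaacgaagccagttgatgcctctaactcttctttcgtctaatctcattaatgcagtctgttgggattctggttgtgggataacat
Hdac9, inner start, chr12:34528890-34529139, minus strand: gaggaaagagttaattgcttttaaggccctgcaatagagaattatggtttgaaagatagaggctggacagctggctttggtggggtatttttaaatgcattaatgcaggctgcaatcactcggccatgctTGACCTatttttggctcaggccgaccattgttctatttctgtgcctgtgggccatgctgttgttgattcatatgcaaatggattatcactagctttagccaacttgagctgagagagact
The search covered both strands. It found AGGTCA in 1 of 15 windows of the 12 genes with a RefSeq entry among the 15 higher genes named, against 16.3% of the 32851 windows of all genes. Such a match is a description of letters and not a binding site.

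Other transcription factors gave EN6 a small positive set and a larger negative one. Of 128 factors listed, 69 were above the 20 CPM floor, of which 6 (8.7%) were higher in all 4 libraries and 16 (23.2%) lower, against 0.914% and 1.98% of all genes above the floor; the median of the mean log2 ratio was −0.23, against −0.05 over all genes above the floor. The higher factors besides Rorb were Bnc2, Ebf2, Lhx2, Barhl1 and Bcl11a. Bnc2, a zinc finger protein, stood at 2022, 1371, 1174 and 795 CPM in EN6, against 278, 175, 221 and 153 CPM in the other excitatory nuclei. Ebf2, a factor of the Collier/Olf/EBF family that acts in neuronal differentiation and migration, stood at 1516, 702, 775 and 382 CPM against 313, 174, 221 and 96.8 CPM. The LIM-homeodomain factor Lhx2 stood at 223, 136, 117 and 72.7 CPM against 56.5, 46.1, 54.1 and 30.4 CPM. For Bnc2, Ebf2 and Lhx2 as for Rorb, the highest EN6 level was at E19 and the lowest at P21, and EN6 stayed above the other excitatory nuclei throughout. The homeodomain factor Barhl1 and the zinc finger factor Bcl11a were higher by folds of 4.18 to 6.96 and 2.05 to 3.17.

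The 16 lower factors include several that other collicular neurons express strongly. Meis2, a homeodomain factor of the tectum, stood at 109, 27.1, 37.3 and 18.2 CPM in EN6, against 792, 345, 452 and 289 CPM in the other excitatory nuclei. Tcf7l2, an effector of Wnt signalling prominent in thalamus and dorsal midbrain, stood at 59.5, 87.4, 14.7 and 6.7 CPM against 894, 790, 248 and 211 CPM. Tfap2d, an AP-2 factor, had 2 UMIs in EN6 in each of the 4 libraries and stood at 293, 110, 101 and 65.8 CPM in the other excitatory nuclei. Sox6, Zeb2, Foxp2, Npas3, Zfhx3, Nfib, Onecut2, Nr2f2, Etv1, Pou4f1, Tfap2b, Esrrb and Zfpm2 were the other 13. Some of them led in another subtype: Etv1 reached 456 to 1006 CPM in EN13, and Sox6 1254 to 2724 CPM in EN9.

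Among 24 collicular neuron markers above the floor, 6 (25%, against 0.914% of all genes) were higher in EN6 in all 4 libraries (Rorb, Sntb1, Col25a1, Cdh7, Nxph1, Ntng2) and 5 (20.8%, against 1.98%) lower (Reln, Htr2c, Cbln2, Etv1, Pou4f1). The list holds known markers of collicular types, Rorb among them. Sntb1 encodes syntrophin β1, a scaffold of the dystrophin complex, and stood at 223, 407, 408 and 471 CPM in EN6. The other excitatory nuclei had 24.2, 32.9, 24.7 and 30.8 CPM, and no other subtype exceeded 82.9 CPM. The fold was 9.22 (6.57 to 12.7) at E19 and 12.4 to 16.5 in the later libraries, so Sntb1 ran opposite to Rorb in time. Sntb1 lies on the minus strand at chr15:55636388-55906949 and overlaps no other gene. Col25a1, a transmembrane collagen needed for motor innervation of muscle, stood at 4227, 2476, 2815 and 2426 CPM against 212, 293, 566 and 503 CPM. Its nearest rival was EN5, which at P21 reached 2199 CPM. Nxph1, a secreted ligand of α-neurexins, stood at 2225, 1340, 1026 and 890 CPM in EN6 and at 267, 345, 169 and 263 CPM in the other excitatory nuclei. The inhibitory nuclei had 2240, 1741, 1722 and 1058 CPM of Nxph1, above EN6 in every library but by a margin within the EN6 interval at E19. Reln, the secreted glycoprotein reelin, was among the lower ones, at 29.7, 12, 10.4 and 5.74 CPM against 264, 195, 263 and 207 CPM.

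**Figure D2:**
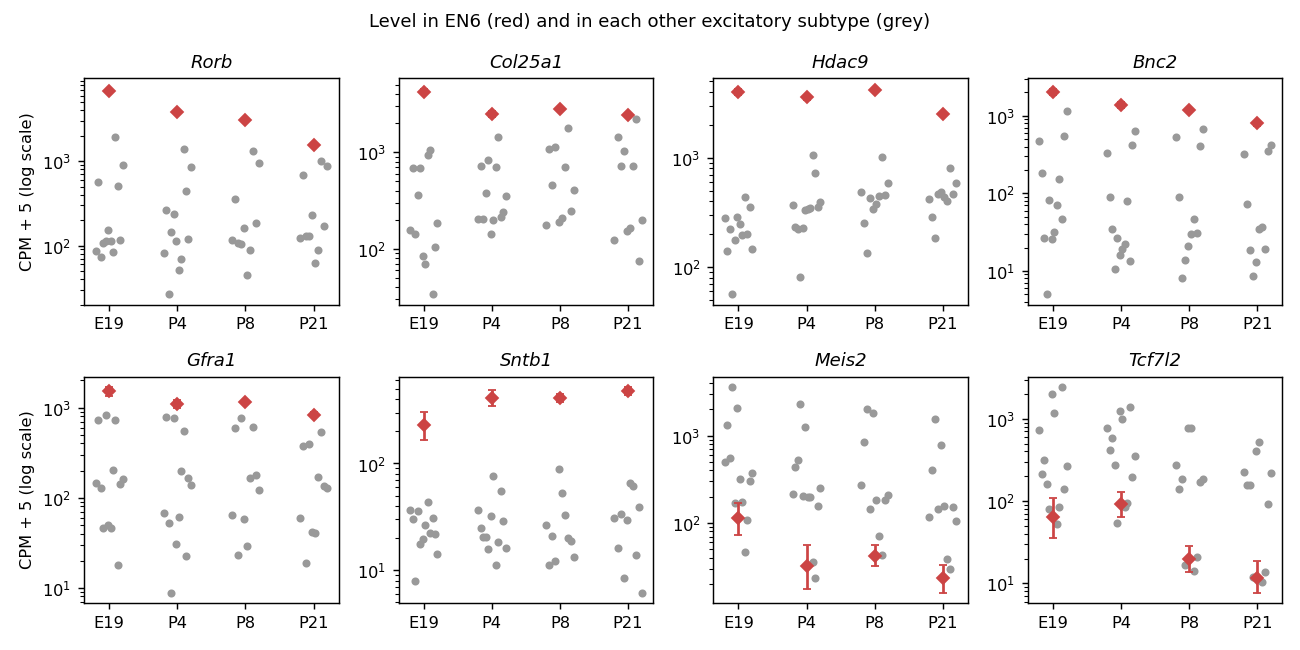
Level in CPM with 5 added (y axis, log scale) of 8 genes by stage (x axis), in EN6 (red diamonds with exact 95% Poisson intervals) and in each other excitatory subtype with at least 20 nuclei (grey points). Rorb, Hdac9, Bnc2, Gfra1, Col25a1 and Sntb1 lay above every grey point at each stage, and Meis2 and Tcf7l2 lay in the lower part.

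The strongest steady differences, ranked by the smallest ratio over the 4 libraries, included Hdac9, Gfra1, Kitl and Mgll. Hdac9, a class IIa histone deacetylase that represses MEF2 targets, stood at 3984, 3569, 4113 and 2508 CPM in EN6 against 261, 426, 474 and 447 CPM. Gfra1, the receptor that binds the growth factor GDNF, stood at 1506, 1081, 1149 and 826 CPM against 151, 110, 205 and 136 CPM. Kitl, the ligand of the Kit receptor, stood at 694, 482, 414 and 279 CPM against 36.3, 132, 47.4 and 53.1 CPM. Rorb, Kitl, Gfra1 and Bnc2 all went from their highest EN6 level at E19 to their lowest at P21. For Kitl, EN7 stood above EN6 at E19 (736 CPM) and at P4 (521 CPM), and EN6 led at P8 and P21. Mgll, which encodes the lipase that breaks down the endocannabinoid 2-arachidonoylglycerol, stood at 1150, 883, 966 and 428 CPM against 59.8, 65.2, 143 and 119 CPM, and EN5 passed EN6 at P21 with 479 CPM.

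Lower-abundance members of the same ranking stood out by fold more than by level. Chst9, a sulfotransferase of N-acetylgalactosamine, stood at 263, 139, 138 and 256 CPM against 10.3, 18.2, 6.65 and 19.9 CPM. Nek11, a kinase of the DNA damage checkpoint, stood at 268, 187, 284 and 195 CPM against 10.9, 16.3, 24 and 10.3 CPM, with a fold of 11.5 to 24.6. Npl, which splits sialic acid, stood at 119, 111, 123 and 203 CPM against 8.91, 10.8, 16.1 and 18.8 CPM. The long noncoding RNA Gm12068 stood at 74.3, 48.2, 122 and 113 CPM against 2.56, 3.02, 5.73 and 3.83 CPM. EN6 was first among subtypes in every library for Chst9, Nek11 and Npl, and second to EN13 at P4 for Gm12068. Adam12, a metalloprotease, and Pde5a, the cyclic GMP phosphodiesterase, complete the set at 238 to 393 CPM and 108 to 191 CPM in EN6. Of the genes in this ranking, Nek11, Gm12068, Adam12, Pde5a, Hdac9, Gfra1, Mgll, Bnc2, Nrp2 and Col25a1 each overlap other annotated genes. The strand setting of the counting is unknown here, so the overlaps could affect their UMIs. For Nek11, Gfra1 and Pde5a every overlap lies on the opposite strand. Chst9, Npl and Kitl overlap none.

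Of 63 axon guidance genes above the floor, 3 (4.76%) were higher in all 4 libraries and 2 (3.17%) lower, against 0.914% and 1.98% of all genes, so the lower share lay near that of all genes. Nrp2, a co-receptor of class 3 semaphorins, stood at 991, 618, 659 and 389 CPM against 124, 128, 153 and 104 CPM. Sema6a, a transmembrane semaphorin, was higher by folds of 2.64, 3.45, 3.53 and 3.68, and Efnb2, a ligand of Eph receptors, by 3.01, 3.93, 3 and 4.88. The lower pair were the repellents Slit2 and Slit3. Slit3 had no UMI in EN6 at E19 and P21, 2 UMIs at P4 and 14 at P8, against 154, 186, 149 and 140 CPM in the other excitatory nuclei at E19, P4, P8 and P21. Taking 3 counts as the upper limit of a zero, Slit3 was at least 10.3-fold lower at E19 and at least 48.8-fold lower at P21.

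Among 82 synapse organisers above the floor, 6 were higher and 6 lower in all 4 libraries, 7.32% each against 0.914% and 1.98% of all genes, with a median log2 ratio of −0.18. The higher ones were the contactins Cntn3 and Cntn5, the receptor phosphatase Ptprd and its partner Slitrk3, Nxph1 and the netrin-G Ntng2. Cntn3, a surface protein of the immunoglobulin superfamily, stood at 2636, 2572, 2432 and 1260 CPM against 287, 312, 334 and 369 CPM. Ptprd stood at 11545, 14088, 14618 and 12985 CPM against 5566, 5728, 5837 and 6183 CPM, the top of all compared subtypes in each library. Slitrk3, a postsynaptic ligand of Ptprd, stood at 79.3, 63.3, 56.4 and 59.3 CPM against 24.8, 22, 21.5 and 26.1 CPM. Ptprd and Slitrk3 thus ran high together in EN6. The lower ones included Cbln2, Tenm1, Mdga1, Kirrel and Lsamp. Of 29 cadherins above the floor, Cdh7 and Pcdh8 were higher in all 4 libraries and Cdh12 and Cdh18 lower. That was 6.9% each way, against 0.914% and 1.98% of all genes.

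Of 22 glutamate receptor genes above the floor, none was higher in all 4 libraries, where all genes gave 0.914%, and 3 (13.6%, against 1.98%) were lower, among them the kainate receptor subunits Grik1 and Grik2. Grik2 stood at 238, 196, 237 and 293 CPM in EN6, against 1664, 1552, 1018 and 1187 CPM. Of 17 GABA and glycine receptor genes, the γ1 subunit Gabrg1 was higher, at 367, 163, 255 and 190 CPM against 46.8, 57.5, 32.2 and 19.8 CPM. The γ3 subunit Gabrg3 was lower, at 238, 133, 216 and 156 CPM against 817, 1018, 1184 and 1065 CPM. Of these genes EN6 was first for Gabrg1 in every library and near the bottom for Grik2 and Gabrg3.

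Of 24 receptors for amines and peptides above the floor, 7 (29.2%, against 1.98% of all genes) were lower in all 4 libraries and none higher (against 0.914%), with a median log2 ratio of −0.70. They were the serotonin receptors Htr2c, Htr4 and Htr7, the α1 adrenergic receptors Adra1a and Adra1b, the substance P receptor Tacr1 and the orexin receptor Hcrtr2. Htr4 stood at 4.96, 15.1, 24.3 and 10.5 CPM in EN6 against 94.4, 106, 125 and 108 CPM. Adra1b had 0, 0, 5 and 2 UMIs in EN6, against 20.7, 19, 16.4 and 10.8 CPM in the other excitatory nuclei. Several of these levels rest on under 10 UMIs per library, and the depth of EN6 was the lowest of the class at 3 of 4 stages; whether depth had a part was not tested. Of 43 potassium channel genes above the floor, 6 (14%, against 1.98% of all genes) were lower by a fold of 2 or more in all 4 libraries. None was higher by that fold (against 0.914%), though Kcnip4 was higher in every library at log2 ratios of 0.13 to 0.74. Among the lower ones was Kcnt2, a sodium-activated channel, at 34.7, 51.2, 64.2 and 7.66 CPM against 190, 237, 228 and 129 CPM. Of 38 sodium, calcium and related channel genes, Cacna2d1, the α2δ1 calcium channel subunit, was higher at 4227, 2548, 2967 and 2797 CPM against 1263, 941, 1143 and 967 CPM.

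Apart from Tfap2d, Slit3, Tcf7l2, Reln and Meis2, the 10 lower genes ranked first were D130079A08Rik, Unc13c, Sgcd, Slc9a9 and Mdga1. Sgcd, δ-sarcoglycan of the dystrophin complex, stood at 74.3, 120, 209 and 124 CPM in EN6 against 1197, 1223, 1755 and 1552 CPM, and EN6 was the lowest subtype in every library. Unc13c, a synaptic vesicle priming protein, stood at 4.96, 45.2, 36.4 and 55.5 CPM against 256, 423, 441 and 548 CPM, again the lowest subtype throughout. Slc9a9, an endosomal sodium/proton exchanger, had no UMI at E19 and stood at 3.01, 26.9 and 25.8 CPM at P4, P8 and P21, against 187, 211, 238 and 250 CPM. Sntb1 and Sgcd, both of the dystrophin complex, therefore lay at opposite ends. The noncoding RNA D130079A08Rik had 0, 0, 4 and 0 UMIs in EN6, against 78.6, 61.5, 112 and 40.9 CPM in the other excitatory nuclei, and Mdga1, a brake on neuroligins, had 2, 0, 8 and 1 UMIs against 141, 103, 130 and 35 CPM.

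EN5 was the subtype most like EN6. The Pearson correlation of log2(CPM + 5) across genes averaged 0.9 over the 4 libraries for EN5 (0.86 to 0.92), 0.88 for EN1 and 0.88 for EN2. These points are genes, not replicates, and the profiles compared share a library but not depth. At E19 the summed UMIs were 201812 in EN6, 287200 in EN5, 5054175 in EN1 and 2122848 in EN2. The part of depth in the correlations was not tested. EN5 was the runner-up for Rorb, Hdac9 and Cntn3 in every library, as it was for Col25a1. Against EN5 alone, 71 of 8920 genes (0.796%) were higher in EN6 by a fold of 2 or more in all 4 libraries and 89 (0.998%) lower. Bnc2 separated the pair, at 2022, 1371, 1174 and 795 CPM in EN6 and 146, 75.6, 26 and 14.2 CPM in EN5. Kcnip1, a subunit that tunes A-type potassium channels, stood at 510, 711, 768 and 515 CPM in EN6 and at 66.2, 84.5, 22.3 and 29.4 CPM in EN5. In the other direction Sorcs1, a sorting receptor, stood at 34.7, 72.3, 99.8 and 154 CPM in EN6 and at 3910, 2407, 2608 and 3730 CPM in EN5. Sgcd, at 74.3 to 209 CPM in EN6, stood at 1717 to 3831 CPM in EN5. The subtypes thus shared the Rorb and Col25a1 group and parted on Bnc2, Sntb1, Sorcs1 and Sgcd.

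The change of EN6 between stages was measured over genes at 100 CPM or more in the higher stage. From E19 to P21, 348 of 2285 genes were higher by a fold of 2 or more (15.2%) and 321 lower (14%), with 5 CPM added. The separate steps moved fewer genes: 122 higher (5.78%) and 68 lower (3.22%) of 2111 from E19 to P4, 27 (1.34%) and 52 (2.58%) of 2016 from P4 to P8, and 96 (4.6%) and 92 (4.41%) of 2086 from P8 to P21. The split depended on scaling. With median-of-ratios scaling the median gene moved by 0.22 on the log2 scale from E19 to P21, and 461 genes were higher and 250 lower. From P4 to P8 that scaling moved the median by 0.12 and gave 45 higher and 34 lower, where CPM gave more lower genes.

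The span from E19 to P21 was wide in EN6. The 90th percentile of absolute log2 ratios stood at a log2 ratio of 1.99, above each of the 10 other subtypes compared, which ranged from 1.26 to 1.9 (EN12). By the share of genes past a fold of 2, EN6 with 29.3% came after EN12 with 30.8%. For single steps the EN6 percentile was 0.96 (E19 to P4), 0.71 (P4 to P8) and 0.96 (P8 to P21). Several subtypes exceeded it there: 2 of 12 subtypes were above it from E19 to P4, 2 of 10 from P4 to P8 and 4 of 10 from P8 to P21. EN6 at E19 held 201812 UMIs, so 100 CPM was 20.2 UMIs there. EN12, second by this measure, held 193856 UMIs at E19. At a floor of 500 CPM, added after seeing the data, the values were 2.02 in EN6 and 2.0 in EN12, so little separated the pair. The part of depth in these spans was not tested.

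Genes of the growing neuron were among those that fell most in EN6. Of 22 genes of immature neurons that could be compared, 19 (86.4%, against 14% of all genes) were lower by a fold of 2 or more at P21 than at E19 and none was higher (against 15.2%); the median log2 ratio was −2.59 in EN6 and −2.12 in the other excitatory nuclei. Tubb2b, a tubulin of growing axons, stood at 887, 560, 178 and 5.74 CPM in EN6, and Tubb5, another tubulin, at 570, 346, 137 and 14.4 CPM. Tmsb10, an actin-binding peptide, stood at 535, 232, 98 and 8.61 CPM. Each of these was lower in each later library, and the other excitatory nuclei ran alike, with Tubb2b at 700, 331, 129 and 4.94 CPM. Fabp7, a fatty acid binding protein best known from radial glia, stood at 277, 127, 70.3 and 0 CPM in EN6 and at 216, 90.9, 53 and 2.29 CPM in the other excitatory nuclei. The inhibitory nuclei had 277, 128, 72.6 and 3.01 CPM, and whether RNA from other cells had a part was not tested.

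Several genes that EN6 held at very low levels at E19 were high at P21. With Xist left aside, the 5 largest rises were Dync1i1, the noncoding RNA Gm13629, Frmpd4, Mical2, which oxidises actin, and the mineralocorticoid receptor Nr3c2. Of 23 potassium channel genes, 10 (43.5%, against 15.2% of all genes) were higher at P21 than at E19 and none lower (against 14%), with a median log2 ratio of 0.7 in EN6 and 0.14 in the other excitatory nuclei. Kcnab1, a β subunit of voltage-gated channels, stood at 9.91, 84.3, 220 and 330 CPM in EN6 against 112, 152, 186 and 235 CPM. The background potassium channel Kcnk9 stood at 0, 33.1, 54.7 and 102 CPM against 25.7, 20.7, 27.6 and 47.5 CPM. Frmpd4, a postsynaptic scaffold, stood at 14.9, 127, 242 and 832 CPM, against 284, 492, 460 and 804 CPM. Slc8a3, a sodium/calcium exchanger, stood at 9.91, 148, 269 and 368 CPM against 232, 275, 294 and 367 CPM. Dync1i1, an intermediate chain of the dynein motor, stood at 4.96, 102, 168 and 436 CPM against 120, 227, 302 and 460 CPM. For Frmpd4, Slc8a3 and Dync1i1 the EN6 level was far under that of its class at E19 and close to it at P21.

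The guidance and adhesion genes Plxna4, Dcc and Cdh10 were likewise under the class in EN6 at E19. Robo3 and the calcium buffer gene Calb1 stood near the class at E19 and above it later. Their E19 levels in EN6 lay under 20 CPM, which is 4.04 UMIs there, so nearness to the class at E19 is not firmly shown. Of 27 guidance genes compared between E19 and P21, 9 (33.3%, against 15.2% of all genes) were higher at P21 in EN6 and 7 (25.9%, against 14%) lower. Plxna4, a receptor subunit for semaphorins, stood at 9.91, 75.3, 108 and 217 CPM in EN6 against 527, 529, 478 and 414 CPM; it overlaps 3 antisense genes. Dcc, the netrin receptor, stood at 357, 1328, 2289 and 2808 CPM in EN6 and at 1690, 1532, 1584 and 1532 CPM in the other excitatory nuclei, so EN6 crossed from below its class at E19 and P4 to above it. Robo3, a receptor that governs midline crossing, stood at 4.96, 30.1, 59 and 94.8 CPM in EN6 against 6.35, 10.4, 12.4 and 9.51 CPM. Cdh10, a cadherin, stood at 49.6, 84.3, 145 and 220 CPM against 320, 284, 249 and 303 CPM. Calb1, the calcium buffer calbindin, stood at 14.9, 114, 92 and 192 CPM against 13.3, 18.1, 25.3 and 29.1 CPM.

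**Figure D3:**
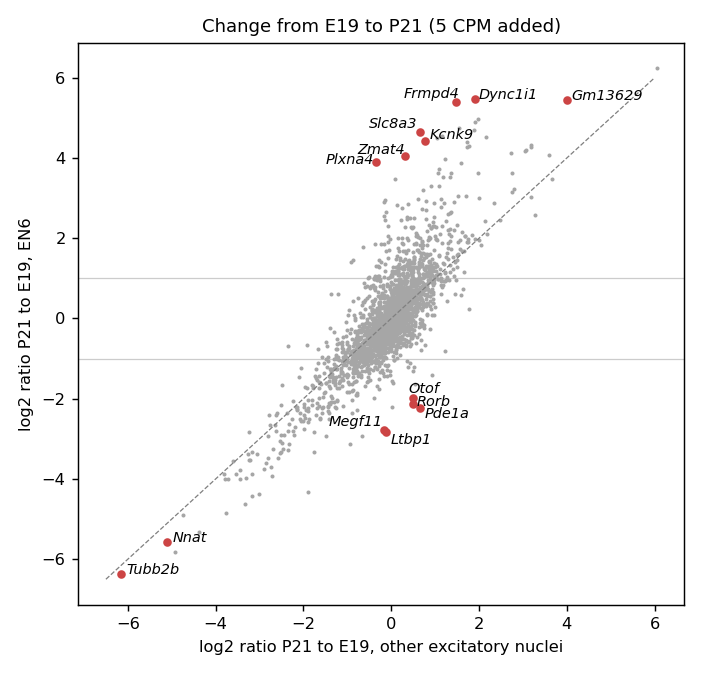
Log2 ratio of P21 to E19 with 5 CPM added, in the other excitatory nuclei (x axis) and in EN6 (y axis), for the 2285 genes at 100 CPM or more in EN6 at either stage; the dashed line marks equal change and grey lines a fold of 2. Plxna4, at 3.9 in EN6 and −0.34 in the others, lay far above the dashed line, and Rorb, at −2.13 and 0.49, below it.

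Some genes moved down in EN6 from E19 to P21 by more than the class as a whole, which moved little or upward. Rorb was 4.39-fold (4.08 to 4.72) lower in EN6 at P21 than at E19, where the other excitatory nuclei went from 185 to 261 CPM. EN5 went down as well, from 1919 to 989 CPM, while its share of excitatory nuclei was 3.06% at E19 and 10.4% at P21, so the makeup of the pooled class moved too; its part in the pooled Rorb level was not tested. Pde1a, a calmodulin-dependent phosphodiesterase, stood at 575, 175, 324 and 119 CPM in EN6 against 64.5, 95.4, 92.1 and 104 CPM. Otof, the vesicle fusion protein otoferlin of hair cells, stood at 139, 133, 98.9 and 31.6 CPM against 30.7, 50.6, 65.3 and 45 CPM. Ltbp1, a matrix protein that holds latent TGF-β, stood at 208, 75.3, 84.1 and 24.9 CPM against 24, 28.4, 35.9 and 21.8 CPM. Rorb still led at P21, while Pde1a, Otof and Ltbp1, all higher than in the class at E19, had come near it or under it. Gria1, an AMPA receptor subunit, stood at 1392, 1199, 1019 and 407 CPM in EN6 and at 753, 793, 727 and 624 CPM in the other excitatory nuclei, so EN6 went from above its class to below it.

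The step from P8 to P21 held changes in both directions. Tshr, the thyrotropin receptor, stood at 24.8, 45.2, 110 and 0.957 CPM in EN6, from 127 UMIs at P8 and 1 UMI at P21. The other excitatory nuclei had 3.44, 2.47, 2.66 and 1.55 CPM. The noncoding RNA A330008L17Rik stood at 24.8, 57.2, 65.9 and 676 CPM in EN6 and at 38.9, 52.8, 75 and 191 CPM in the others, a fold of 10.2 (8.08 to 13.2) from P8 to P21 in EN6. Specc1, a cytoskeletal protein, stood at 14.9, 27.1, 28.6 and 328 CPM in EN6 and at 26.3, 31.3, 50.1 and 373 CPM in the others, and so climbed in both.

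**Figure D4:**
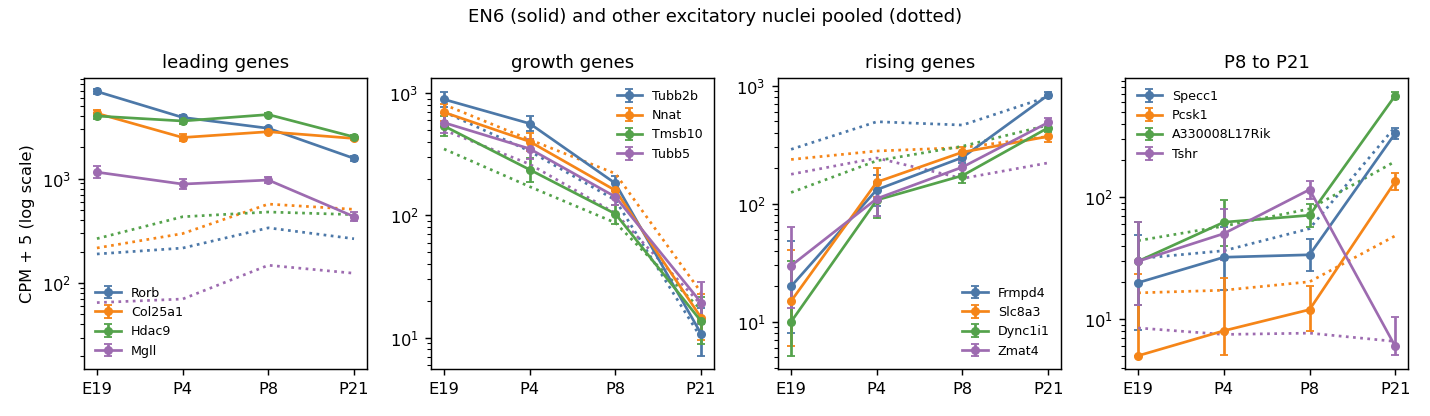
Level in CPM with 5 added (y axis, log scale) by stage (x axis) for 4 groups of genes, in EN6 (solid, exact 95% Poisson intervals) and in the other excitatory nuclei pooled (dotted). Rorb descends in EN6 toward the dotted line, Tubb2b and the other growth genes descend along it, Frmpd4 and its companions climb to it or (Zmat4) above it, and Tshr drops from 110 to 0.957 CPM between P8 and P21.

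Some of the largest steps carried genes of other cells. Ttr, the transthyretin of choroid plexus, stood at 0, 111, 0 and 0.957 CPM in EN6, at 71.8 CPM in the other excitatory and 95.7 CPM in the inhibitory nuclei at P4, and at or near 0 in all of them elsewhere; the other 5 genes of the epithelial list were at 0 in EN6 at P4. The summed level of 9 oligodendrocyte markers went from 49.4 to 257 CPM in EN6 from P8 to P21 and from 67 to 275 CPM in the other excitatory nuclei. The summed level of 8 astrocyte markers was 104, 247, 227 and 105 CPM in EN6, with Aqp4, Gja1 and Gfap at 0 at E19, against 167, 154, 121 and 90.4 CPM. These markers did not move together. The mean log2 ratio of EN6 to the other excitatory nuclei was 1.74 (−0.15 to 2.79 over libraries) for Slc1a3. For Slc1a2 it was −0.65 (−1.07 to −0.24). Fgfr3, Gfap, Aldh1l1, Gja1, Aldoc and Aqp4 had means of 0.52, 0.24, 0.21, 0.11, 0.02 and −0.06. The part of RNA from other cells in the genes above was not tested. Xist, the RNA that coats the silenced X in female cells, had no UMI in EN6 at E19 and 672, 599 and 372 CPM at P4, P8 and P21, and 0.53, 456, 424 and 362 CPM in the other excitatory nuclei. Stage and the makeup of the pool by sex cannot be told apart in the comparisons with E19.

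EN6 was not uniform. With each nucleus thinned to 3000 UMIs, which kept all 236, genes were ranked by the variance beyond that of sampling (Pearson residual variance, where sampling alone gives about 1), taking the lowest value over the 4 libraries. The 8 that varied most were Tenm2, Pcdh9, Kcnip4, Galntl6, Tenm3, Ptprd, Erbb4 and Csmd1. Tenm2, a teneurin that binds latrophilins across the synapse, had a residual variance of 7.81, 16, 16.9 and 11.1 at E19, P4, P8 and P21, where the median gene had 0.933, 0.962, 1.03 and 1.00. At P8 the thinned Tenm2 count ran from 2 to 137 UMIs per nucleus with quartiles of 18 and 66. Erbb4, the neuregulin receptor, had no UMI in 36.7%, 31.7%, 28.7% and 21.9% of thinned EN6 nuclei, while its median was 2.5, 4, 5 and 8 UMIs. Pcdh9, a protocadherin, ran from 2 to 107 UMIs at P8 with quartiles of 8 and 25.

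These genes varied together in a pattern that recurred in all 4 libraries. Across nuclei, Tenm2 and Ptprd were correlated at r = 0.55 to 0.64 in the 4 libraries, Ptprd and Erbb4 at 0.37 to 0.77, and Galntl6 and Erbb4 at 0.38 to 0.76. Pcdh9 ran the other way, at −0.57 to −0.52 with Tenm2 and −0.47 to −0.31 with Ptprd, and at 0.17 to 0.58 with Csmd1. Of the 28 pairs, 20 kept their sign in all 4 libraries in EN6. In the other excitatory nuclei pooled, more of the 28 pairs kept their sign than changed it. In EN5 fewer kept it than changed it. Each r is over the 30, 41, 101 or 64 nuclei of 1 library, which share that library and a fixed total of UMIs, and is given as a description. In EN5 the range for Tenm2 and Ptprd was −0.31 to −0.2, and in the other excitatory nuclei pooled −0.02 to 0.19. For Tenm2 and Pcdh9 it was −0.24 to 0.06 in EN5 and −0.08 to −0.01 in the others, and for Ptprd and Erbb4 −0.29 to 0.16 and −0.28 to −0.11. For these 3 pairs the EN6 range lay apart from those of both comparison groups, while for Pcdh9 and Csmd1 the EN5 range of 0.21 to 0.33 lay inside that of EN6. A kept sign was not particular to EN6. Kcnip4 and Csmd1 ran at −0.33 to −0.2 in EN6, −0.36 to −0.15 in EN5 and −0.27 to −0.06 in the pooled others. Pcdh9 and Kcnip4 ran at −0.41 to −0.03, −0.41 to −0.25 and −0.18 to −0.1 in the same groups. The 8 genes were picked for their spread in EN6 and not in the other groups.

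**Figure D5:**
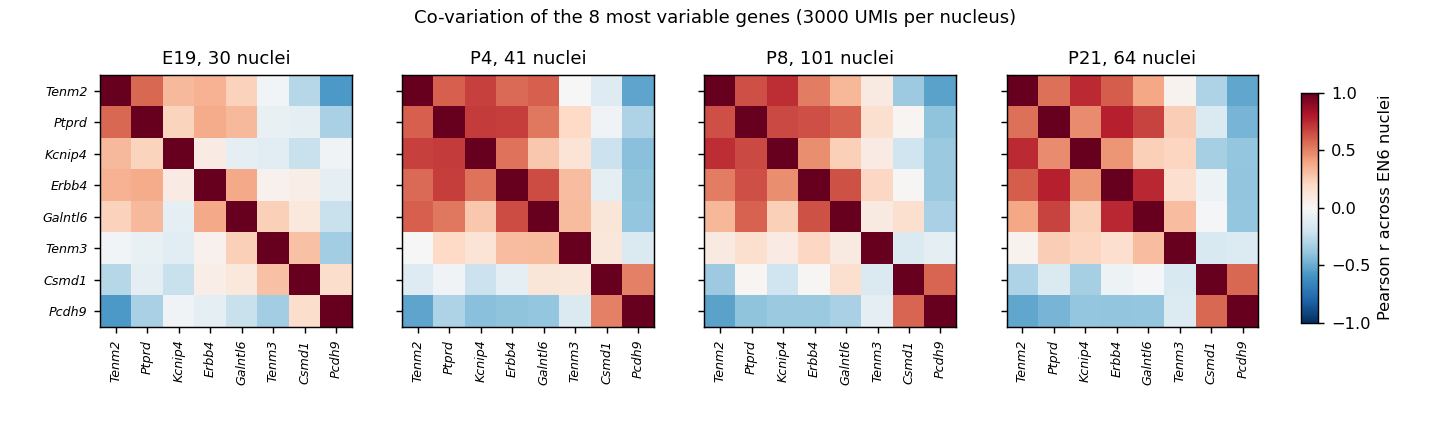
Pearson r across EN6 nuclei (colour scale, −1 to 1) between the 8 genes that varied most, in 1 panel per library, each nucleus thinned to 3000 UMIs; rows and columns are genes. In every panel Tenm2, Ptprd, Erbb4 and Galntl6 form a block of positive values, and Pcdh9 is negative against Tenm2 (−0.57 to −0.52).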

How the data were processed

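Superior colliculus nuclei of 4 libraries (E19, P4, P8, P21) were analysed from the deposited matrix of UMI counts (31053 genes, 9724 nuclei), made by the authors with CellRanger 3.0.2 and a pre-mRNA mm10 reference, per the labels' protocols, so intronic reads count. The deposited percent of mitochondrial and ribosomal UMIs came from the authors' table of nuclei. Filtering, doublet removal and clustering are not described in the sources used here; no doublet caller was run. Stage and subtype came from the deposited table, in which 4 columns of per-nucleus values were not used. UMIs were summed per subtype and library and scaled to CPM. Folds are ratios of CPM; log2 ratios have 5 CPM added and understate changes of low genes. Zeros were bounded by 3 counts per library.

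The members, lists and rules were chosen with earlier results of these data known. Genes were named by rank: the 15 highest and 10 lowest steady ratios at 100 CPM or more, the 5 largest rises and falls per step, the 5 largest differences in E19 to P21 change on each side, up to 3 members of each list by ratio and by change, list members past the fold in all 4 libraries, cell type markers, and the 8 most variable genes; Kcnip1 and Sorcs1 were named from the comparison with EN5 after their values were seen. Alternatives covered pseudocount, floor, weighting, thinning, scaling, doublet-like nuclei, the comparison group and each library left out. Positions are from GENCODE M21 (GRCm38), in which 99.9% of gene identifiers were found, 1-based. Some genes are not reported here. The scripts were tested on simulated data. Python 3.11.15, numpy 2.4.6, scipy 1.17.1 and pandas 2.3.3 were used.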

Additional observations from a re-analysis of the deposited data

Results flagged for a closer look

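Of the genes named for the largest differences in E19 to P21 change between EN6 and its class, 4 moved past a fold of 2 in EN6 and in the opposite direction in the class, as log2 ratios with 5 CPM added. Genes named by other rules, such as Mgll, Col25a1, Dcc and Sorcs3, also moved opposite ways, by the levels given elsewhere. Rorb changed by −2.13 in EN6 and by 0.49 in the other excitatory nuclei, and Pde1a by −2.23 and 0.65. Otof changed by −1.97 in EN6 and 0.48 in the others. Plxna4 went the other way, at 3.9 in EN6 and −0.34 in the others. Each value compares 1 library with 1 library, and the differences between EN6 and the other nuclei were not tested.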

How the results depend on the processing

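No paired analysis was possible because each stage has 1 library and the labels carry no replicate numbers. None of the 671 alternative values of single genes reversed its direction, but many of them could not have done so. A changed floor leaves the ratio of a gene as it was. This held for 65 values at 50 CPM, 40 at 500 CPM and 25 without a floor. Leaving out libraries cannot reverse a ratio that has the same sign in all 4. Residual variances have no direction to reverse. Of the 671 values, 101 moved by more than the counting interval or, for residual variances, by more than a set fold. With 20 CPM added in place of 5, 50 genes were higher and 100 lower in EN6 than in the other excitatory nuclei in all 4 libraries. Leaving out 1 library at a time gave 84 to 109 higher and 187 to 233 lower genes; every gene past the fold in 4 libraries is past it in any 3, so higher counts follow from the rule.

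For the stage steps, adding 20 CPM gave a 90th percentile of 0.85 for E19 to P4, 0.65 for P4 to P8, 0.87 for P8 to P21 and 1.74 for E19 to P21, with 45 lower genes from E19 to P4 and 15 higher and 32 lower from P4 to P8. A floor of 50 CPM gave 1.08 from E19 to P4 (322 higher, 213 lower), 0.79 from P4 to P8 (62 and 121), 182 and 197 between P8 and P21, and 630 and 695 from E19 to P21, from more genes tested. Thinning each nucleus to 3000 UMIs gave 1.26 from E19 to P4 (233 higher, 191 lower), 0.96 from P4 to P8 (64 and 135), 1.13 between P8 and P21 (174 higher) and 2.17 from E19 to P21 (502 lower). Median-of-ratios scaling gave 45 higher and 34 lower from P4 to P8. The floor of 500 CPM gave 22 and 9 from E19 to P4, 0.63 with 2 and 10 from P4 to P8, then 16 and 14 between P8 and P21, and 74 and 82 from E19 to P21, from fewer genes tested.

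The mean correlation was 0.88 with EN5, 0.87 with EN1 and 0.87 with EN2 by Spearman's rho. With a floor of 100 CPM it was 0.85, 0.79 and 0.79, and EN1 and EN2 then ranked 4 and 5, with EN5 still 1. For the share of nuclei and for the counts and percentiles not given here, 84 alternative values stayed within their interval or within 1.5 times the count. At E19 the depth of EN6 leaves a gene at 20 CPM with 4.04 UMIs, so a gene without a UMI there is bounded at 3 counts and not shown to be absent. The cause of the shifts with pseudocount, thinning and scaling was not tested.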

Other observations

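Several genes had their highest EN6 level at P21. Pcsk1, the prohormone convertase of dense-core vesicles, stood at 0, 3.01, 6.94 and 129 CPM in EN6 at E19, P4, P8 and P21, against 11.4, 12.2, 15.2 and 43.1 CPM in the other excitatory nuclei. Scg2, a granin of the same vesicles, stood at 19.8, 24.1, 14.7 and 137 CPM against 43.3, 53.3, 16.6 and 59.9 CPM. Both were under the class before P21 and above it at P21. The immediate early gene Egr1 stood at 4.96, 0, 0.868 and 66 CPM in EN6 against 0.441, 0.412, 1.74 and 18.7 CPM. Nr4a1, another immediate early gene, stood at 0, 24.1, 26.9 and 90 CPM against 23.7, 30.6, 28.2 and 29.8 CPM. Sorcs3, a sorting receptor of the Vps10 family, stood at 4.96, 3.01, 41.6 and 73.7 CPM against 547, 412, 486 and 278 CPM.

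Glra1, the α1 glycine receptor subunit, stood at 0, 15.1, 34.7 and 78.5 CPM in EN6 and at 17, 20.4, 30.7 and 63.3 CPM in the other excitatory nuclei. Htr1f, a serotonin receptor, stood at 4.96, 30.1, 58.1 and 119 CPM in EN6 against 29.2, 35.9, 41.8 and 66.3 CPM, in contrast to the 7 low receptors for amines and peptides. The cannabinoid receptor Cnr1 stood at 79.3, 30.1, 33 and 10.5 CPM against 54.6, 35.7, 40.7 and 31.7 CPM.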
